A study of Mus musculus with 3 samples.

Results

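Expression was described for 9 genes of the sarcomere backbone and the Z-disc, namely Ttn, Neb, Nrap, Actn1, Actn2, Actn3, Tcap, Ldb3 and Csrp3, of 35562 genes in the bulk RNA-seq of edited myoblasts. The genes were chosen by name, and their transcripts were summed per gene over the listed transcript identifiers. The cells were 3 mouse myoblast lines, 66, 67 and 72, with 1 library each. All 3 lines carried the Dmdmdx mutation, CRISPR/Cas9 editing to correct it, and the Pax7-nGFP reporter, and all derived from mouse-mouse chimeras. GFP-positive cells had been sorted before RNA was taken, so every library came from cells chosen by activity of the Pax7 reporter. No unedited or wild-type library was analysed here, so the lines formed 1 condition and values were compared between lines without a test. The labels do not say whether the lines came from separate chimeras, and the spread between them may in part be technical. Total estimated counts in lines 66, 67 and 72 were 73274315, 66972426 and 70272367.

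The sarcomere is the contractile unit of striated muscle, bordered by Z-discs in which actin filaments of neighbouring units are crosslinked by alpha-actinin. Titin spans from the Z-disc to the M-band and nebulin runs along the thin filament, while Nrap, Ldb3, Tcap and Csrp3 encode scaffold proteins that join these filaments to the Z-disc and its signaling proteins. Skeletal muscle and heart use different splice forms of several of these genes, and most of the genes are upregulated as myoblasts withdraw from the cell cycle and form myotubes.

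All 9 genes were detected in every line. Levels are given as TPM, transcript abundance corrected for length and depth, and how genes compare with one another depends on the transcript lengths used. Actn1, the alpha-actinin of non-muscle cells, had the highest mean at 246 ± 30.4 TPM, and Tcap, encoding telethonin, had the lowest at 2.69 ± 0.35 TPM (SD, n = 3 lines for all means given). On the log2(TPM + 1) scale the 9 genes had medians of 4.53, 5.13 and 5.30 in lines 66, 67 and 72. The corresponding medians were 5.22, 5.24 and 5.28 for the 8428 genes averaging 10 TPM or more. The 6 members that also average 10 TPM or more (all but Nrap, Csrp3 and Tcap) had medians of 5.48, 5.90 and 6.21. With their counts set over the longest coding transcript instead, an alternative added after the data were seen, these medians were 4.51, 5.20 and 5.43, and the other genes were not recomputed in that way. Because the median over all genes was not recomputed, the 6 members can be set beside it by summed transcript TPM only.

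The cells carried the markers of proliferating myoblasts. Pax7, which marks satellite cells, was measured at 136, 143 and 154 TPM in lines 66, 67 and 72. Myf5 stood at 97.2, 118 and 113 TPM, and Myod1 at 791, 702 and 579 TPM. Myog, which drives differentiation, was also present at 168, 222 and 310.4 TPM, highest in line 72. Summed over 10 genes of differentiating muscle, TPM was 1731, 2449 and 2943 in lines 66, 67 and 72, and 8 of these genes exceeded 10 TPM in every line. The summed level of 6 cell cycle genes was 581, 783 and 764 TPM. The sums of both lists were lowest in line 66.

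**Figure D1:**
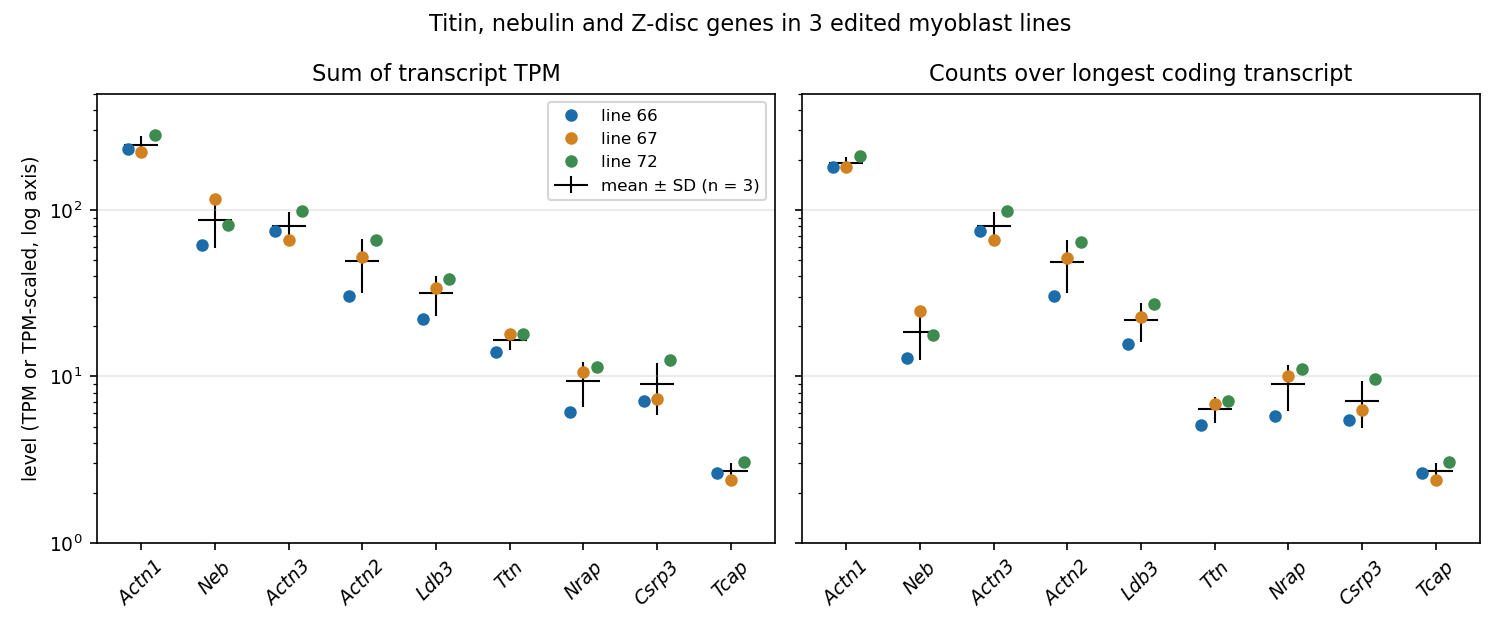
Level of the 9 genes in lines 66, 67 and 72, as the sum of transcript TPM (left) and as gene counts over the effective length of the longest coding transcript on the same scale (right). Both vertical axes are logarithmic, points are single lines and crosses show mean ± SD (n = 3); Neb has a mean of 86.5 TPM on the left and 18.5 on the right.

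Titin was described first, as the molecule that spans from the Z-disc to the M-band. Ttn (chr2:76703980-76982547, minus strand, GRCm38 annotation) stood at 14.0 TPM in line 66, 17.9 in line 67 and 17.9 in line 72, with a mean of 16.6 ± 2.26. Lines 67 and 72 were level and line 66 was lower, with 1.28 times between the highest and lowest line. On account of its length Ttn took 24196, 29641 and 31795 estimated counts, 27.8% to 29.5% of all counts assigned to the 9 genes but only 2.94% to 3.39% of their summed TPM.

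Of 25 listed Ttn transcripts, 11 had more than 3 estimated counts in at least 1 line. Leading by TPM was Ttn-202, a short coding transcript of 16891 bases that ends in its own exon of 6520 bases in the I-band part of the gene. It was measured at 5.27, 6.84 and 7.49 TPM in lines 66, 67 and 72, or 39.2% ± 2.25 of gene TPM. Of its 31-base words, the unit by which the quantification program assigns reads, 38.7% were found in no other transcript. Ttn-201, a transcript that reaches the M-band, was close behind at 5.15, 7.03 and 7.32 TPM, or 38.9% ± 2.05, and the ranges of the pair overlapped. By estimated counts the order was different, because Ttn-201 is much longer: it took 77.4% ± 0.55 of counts and Ttn-202 15.7% ± 0.42.

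Ttn-201 contains the exon of 2646 bases at chr2:76907308-76909953, which is the N2B exon known from cardiac titin, and it lacks 24981 bases, in 155 exons, of the longest form Ttn-203. Ttn-205, without the 2646-base exon and with 22492 bases that Ttn-201 lacks, has the layout of the N2A form typical of skeletal muscle. Ttn-205 was measured at 0.24, 0.27 and 0.22 TPM and Ttn-203 at 0.07, 0.11 and 0.16 TPM in lines 66, 67 and 72. Ttn-201 thus held 94.3%, 94.8% and 94.98% of the TPM of Ttn-201, Ttn-203 and Ttn-205 together. Transcripts with the 2646-base exon held 95.4%, 96.3% and 96.8% of the TPM of Ttn transcripts that span it. The program split shared reads, and only 0.03% of the words of Ttn-201 were its own, so it is told apart from Ttn-203 almost only by the exons it lacks. Listed lengths of Ttn-201 (81999 bases) and Ttn-203 (107355 bases) also exceed those in the annotation used here, so their exon content may differ slightly from this description.

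Markers of heart muscle were given beside this split. Among 9 cardiac genes, 7 were under 1 TPM in every line, and of these Nppa, Nkx2-5 and Myl7 were listed at 0 in all 3. Tnni3 stood at 3.58, 2.42 and 1.71 TPM in lines 66, 67 and 72, with 104, 61 and 47 estimated counts. It was named after its values were seen. The summed level of the list was 25.8, 17.9 and 10.3 TPM, highest in line 66, and most of it was Gata4 (22.1, 14.7 and 8.44 TPM), which was named after its values were seen. The part of these genes in the Ttn split was not tested.

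Nebulin, which lies along the thin filament and is anchored in the Z-disc, differed from the other genes in the line where it was highest. Neb (chr2:52136647-52378474, minus strand) stood at 61.8 TPM in line 66, 116 in line 67 and 81.5 in line 72, with a mean of 86.5 ± 27.5. Line 67 was highest and line 66 lowest, 1.88 times apart. The SD of log2(TPM + 1) over the lines was 0.45, larger than that of 96.7% of genes averaging 10 TPM or more.

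The level of Neb depended on short annotated transcripts. The 7 detected transcripts under 4000 bases held 74.4% ± 0.74 of gene TPM, led by Neb-210 of 1027 bases at 17.6, 32.0 and 22.6 TPM. Neb-206 of 2303 bases followed at 15.3, 25.9 and 15.95 TPM. The long forms Neb-202 (22489 bases) and Neb-203 (21456 bases) together held 8.73% ± 0.95 of gene TPM, at 4.75, 10.4 and 7.78 TPM in lines 66, 67 and 72. When the gene counts were divided by the effective length of Neb-202 on the same scale, a calculation added after the split was seen, Neb stood at 13.0, 24.6 and 17.9, with a mean of 18.5 ± 5.86. By this measure Neb was 21.4% of its summed level and had a range that overlapped that of Ldb3, but line 67 stayed highest and the ratio of highest to lowest line was 1.90.

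Near its 3′ end Neb has a pair of exons of 93 bases each, used alternatively in the annotated long forms. They are shown to let the sequences be compared: 81 of 93 positions are identical, or 87.1%, and capitals mark the positions at which they differ. Both are coding and are given 5′ to 3′ on the transcribed strand.
Neb-203, exon 143, chr2:52156355-52156447: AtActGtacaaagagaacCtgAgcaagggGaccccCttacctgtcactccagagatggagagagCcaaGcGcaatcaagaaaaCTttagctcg
Neb-202, exon 148, chr2:52153056-52153148: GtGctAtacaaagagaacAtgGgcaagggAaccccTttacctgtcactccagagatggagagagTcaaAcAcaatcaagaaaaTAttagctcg
Among transcripts holding either exon, those with the exon of Neb-203 took 55.7%, 49.4% and 55.1% of TPM in lines 66, 67 and 72. By estimated counts the shares were 70.6%, 69.4% and 70.4%. For the 2 long forms alone Neb-203 held 48.6%, 54.7% and 54.4% of their TPM. Both exons were therefore represented in every line. Neb-206 spans the site of both exons and holds neither. Among all transcripts that span the exon of Neb-203, those holding it took 32.9%, 31.1% and 33.3% of TPM in lines 66, 67 and 72. By estimated counts they took 61.5%, 61.5% and 63.1%.

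Nrap encodes the nebulin-related anchoring protein, which takes part in the assembly of myofibrils. Nrap (chr19:56320035-56390037, minus strand) stood at 6.12 TPM in line 66, 10.7 in line 67 and 11.4 in line 72, with a mean of 9.41 ± 2.87. Lines 67 and 72 were close to each other, and line 66 was lower by a factor of 1.87 against line 72. All 6 listed transcripts were detected, and Nrap-202 led with 2.48, 4.29 and 5.999 TPM, or 44.4% ± 7.02 of gene TPM. Nrap-203 followed at 1.79, 3.002 and 3.64 TPM.

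Nrap-202 holds an exon of 105 bases, its exon 12, which is known to be included in skeletal muscle and skipped in heart. Nrap-203 and Nrap-201 lack it, and Nrap-203 also differs from Nrap-202 elsewhere, with a coding length of 4833 against 5184 bases. The exon is shown in lower case as the sequence on which the shares that follow rest.
Nrap-202, exon 12, chr19:56374364-56374468: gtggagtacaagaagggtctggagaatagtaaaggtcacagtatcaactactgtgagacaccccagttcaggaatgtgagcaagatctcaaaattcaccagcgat
Transcripts holding the exon took 56.0%, 51.0% and 60.9% of Nrap TPM in lines 66, 67 and 72, with a mean of 55.9% ± 4.95. By estimated counts the mean was 56.5% ± 4.82. Inclusion was thus partial in each line, highest in line 72 and lowest in line 67. Of 5683 Nrap words, 238 were shared with Habp2, a neighbouring gene on the other strand that had at most 6 counts in any line.

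**Figure D2:**
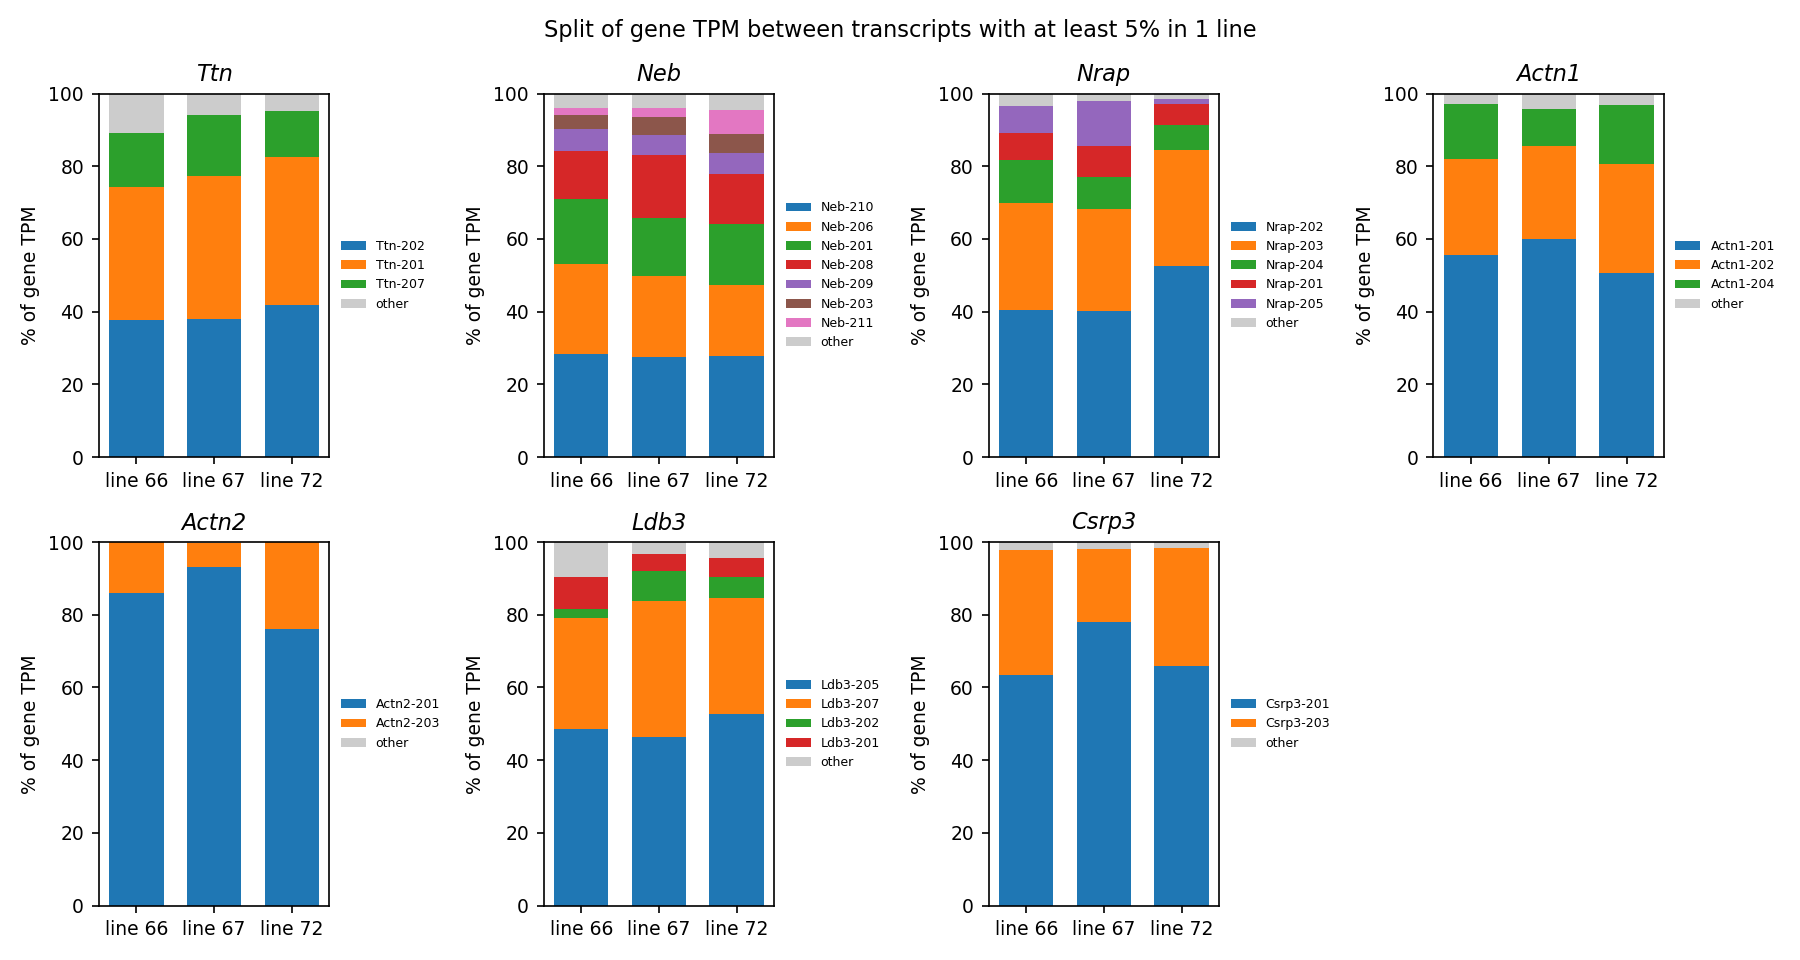
Share of each gene's TPM held by its transcripts in lines 66, 67 and 72, for the 7 genes with several detected transcripts; each bar sums to 100% of gene TPM, and transcripts with under 5% in every line are pooled in grey. Neb is split over many short transcripts, while Ttn-202 and Ttn-201 hold 39.2% and 38.9% of Ttn TPM on average.

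The alpha-actinins, which crosslink actin filaments, were compared as a family. Actn1 (chr12:80167547-80260371, minus strand) stood at 234 TPM in line 66, 223 in line 67 and 280.1 in line 72. Lines 66 and 67 were close and line 72 was higher, and the ratio of highest to lowest line was 1.26. Actn2 (chr13:12269426-12340760, minus strand), an alpha-actinin of skeletal and cardiac Z-discs, stood at 30.5, 52.0 and 65.5 TPM, with a mean of 49.4 ± 17.6. Actn3 (chr19:4861216-4877909, minus strand), restricted to fast fibers in adult muscle, stood at 74.4, 66.3 and 99.0 TPM, with a mean of 79.9 ± 17.0. Actn2 was lowest in line 66 and Actn3 in line 67, while both were highest in line 72.

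Actn3 exceeded Actn2 in every line, with Actn2 at 0.41, 0.78 and 0.66 of the Actn3 level. The sarcomeric pair together made up 14.3%, 16.1% and 19.1% of the summed TPM of the 4 alpha-actinins. The rest was Actn1, at 31.5% ± 1.14, and Actn4, another non-muscle alpha-actinin that is no member, at 52.0% ± 3.03. Reads of the family were well separated by sequence, as 98.4% of Actn2 words and 99.0% of Actn3 words were found in no other gene. For Actn1 the share was 91.5%, and the gene sharing most words with it had at most 32 counts in any line.

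Actn1 was split between forms with alternative EF-hand exons, the calcium-binding part of the protein. Actn1-201 holds an exon of 81 bases, known from non-muscle cells, and Actn1-202 holds an exon of 66 bases in its place, known from smooth muscle. The sequences are shown because the alternative rests on them.
Actn1-201, exon 19, chr12:80170686-80170766: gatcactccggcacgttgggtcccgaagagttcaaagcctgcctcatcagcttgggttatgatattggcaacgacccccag
Actn1-202, exon 19, chr12:80170183-80170248: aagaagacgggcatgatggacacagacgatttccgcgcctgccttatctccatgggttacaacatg
Actn1-201 was measured at 130 TPM in line 66, 134 in line 67 and 142 in line 72, and Actn1-202 at 62.3, 57.1 and 83.6 TPM. Transcripts holding the 81-base exon took 67.6%, 70.1% and 63.0% of the TPM of those that span the site, and the 66-base exon took 32.4%, 29.9% and 37.0%. The non-muscle exon thus led in all 3 lines, and the smooth muscle exon was highest in line 72. A further 13.9% ± 3.14 of Actn1 TPM fell to Actn1-204, a transcript of 943 bases without a coding sequence.

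Markers of smooth muscle were divided. Of 6 genes, Myh11, Cnn1 and Myocd were under 1 TPM in every line, and the other 3 (Smtn, Acta2 and Tagln) exceeded 10 TPM in every line. The summed level was 314, 380 and 735 TPM, highest in line 72, mostly from Acta2 at 209, 292 and 581 TPM. The part of these genes in the Actn1 split was not tested.

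Actn2 was the only gene of the 9 whose highest line exceeded 2 times the lowest, at 2.15 times. Among the 6 members averaging 10 TPM or more this was 1 gene, against a background of 2.47% of the 8428 genes at that level. Above 1.5 times were 3 of the 6 (Actn2, Neb and Ldb3), against 9.79% of the 8428 genes. Without line 66 the latter count was 0, without line 67 it was 2 and without line 72 it was 3, where the shares over all genes were 3.61%, 5.70% and 5.65%. Without line 66 the ratio for Actn2 was 1.26, and without line 72 it was 1.70. The transcripts Actn2-201 and Actn2-203, which share the same coding length of 2682 bases and differ outside it, stood at 26.3, 48.5 and 49.8 TPM and at 4.22, 3.45 and 15.7 TPM. In line 72 Actn2-203 took 23.9% of gene TPM, against 13.8% in line 66 and 6.63% in line 67. No 31-base word was found in Actn2-203 alone, so this split is uncertain. Actn3 had reads in 1 of its 2 listed transcripts.

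Sequence before the start of Actn2 is shown because it was the gene that varied most between lines. The RefSeq table (GRCm38.p6) gives 250 bases before and 50 after each start, and it held 8 windows for 6 of the 9 genes; Neb, Actn3 and Tcap had none. The 250 bases before the Actn2 start follow, with each CANNTG match in capitals; CANNTG is the E-box, the motif class to which MyoD-family factors bind, and it reads the same in form on both strands.
Actn2, chr13:12340733-12340982, minus strand: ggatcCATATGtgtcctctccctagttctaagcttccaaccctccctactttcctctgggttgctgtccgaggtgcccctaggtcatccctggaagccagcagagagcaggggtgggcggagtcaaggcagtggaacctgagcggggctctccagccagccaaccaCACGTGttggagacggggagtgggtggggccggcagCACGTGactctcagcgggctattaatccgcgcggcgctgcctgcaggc
In the full window CANNTG occurred 3 times for Actn2 and 3 times for Nrap, once for Ttn and once for Actn1. The matches of Actn2 read CATATG and CACGTG, so none is of the CAGCTG or CACCTG form described below. The windows of Csrp3 held 4 and 5, and those of Ldb3 none. Of 32851 windows of all genes, 72.3% held at least 1 CANNTG, and the mean was 1.39 per window. The form CAGCTG, a subset of these matches, occurred in the Nrap window only among these genes, against 16.3% of all windows. The form CACCTG, counted on both strands and also a subset, occurred once for Ttn and 2 times in 1 Csrp3 window, against 20.2% of all windows. These matches are descriptions of the letters and say nothing about binding.

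Ldb3, also called Zasp or Cypher, encodes a PDZ-LIM scaffold that binds alpha-actinin. Ldb3 (chr14:34526603-34588682, minus strand) stood at 22.2 TPM in line 66, 33.9 in line 67 and 38.3 in line 72, with a mean of 31.5 ± 8.36. Line 66 was lowest, and the highest line exceeded it 1.73 times. Ldb3-205, a long form of 15 exons, led at 10.8, 15.8 and 20.2 TPM, or 49.2% ± 3.13 of gene TPM. Ldb3-207, a short form that ends before the exons of the LIM domains, followed at 6.74, 12.6 and 12.2 TPM, or 33.2% ± 3.60. By estimated counts, in which the longer transcript weighs more, the shares were 68.8% ± 2.85 and 14.5% ± 2.07.

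Both leading Ldb3 transcripts belong to the skeletal muscle forms, which lack an exon of 359 bases known from the cardiac forms. Transcripts of the skeletal forms took 88.6%, 87.1% and 89.0% of Ldb3 TPM in lines 66, 67 and 72. Transcripts with the 359-base exon at chr14:34576986-34577344, led by Ldb3-201 and Ldb3-202, took 11.4%, 12.9% and 11.0%. The lines differed by less than 2 percentage points in this split. Ldb3 therefore stood mostly in its skeletal form, while Nrap had both forms at similar levels and among Ttn transcripts that span its site the 2646-base exon was mostly held.

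**Figure D3:**
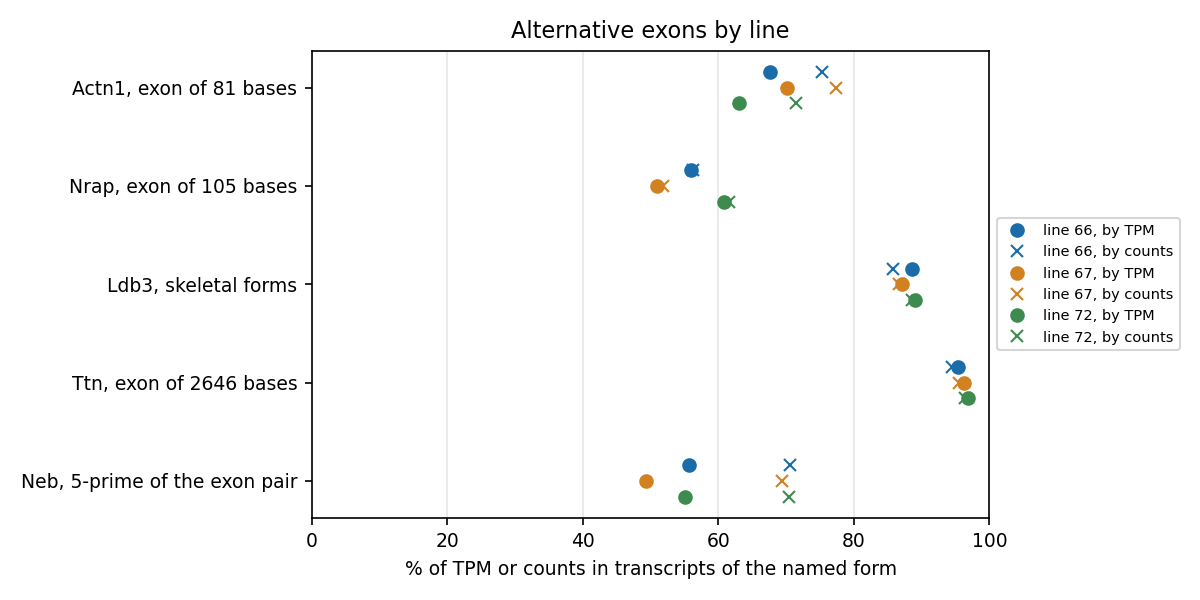
Share of transcripts that hold an alternative exon of Actn1, Nrap, Ttn or Neb, or belong to the skeletal forms of Ldb3, in lines 66, 67 and 72, in percent by TPM (circles) and by estimated counts (crosses). The Ldb3 share lies above 85% in every line and the Nrap exon between 51.0% and 60.9% by TPM. The Ttn and Actn1 exons are given only among transcripts that span them, which leaves out Ttn-202 with 39.2% of Ttn TPM, and the Neb exon is given among transcripts with either exon of its pair.

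Tcap encodes telethonin, which joins titin ends at the Z-disc, and Csrp3 encodes muscle LIM protein, which binds telethonin; these genes had the fewest reads. Tcap (chr11:98383811-98384953, plus strand) took 117, 100 and 130 estimated counts in lines 66, 67 and 72, or 2.61, 2.39 and 3.07 TPM. The exact 95% Poisson intervals of these counts were 96.8 to 140.2, 81.4 to 122 and 109 to 154, which overlap. They are not adjusted for the unequal library totals, and whether Tcap differed between lines was not tested. These intervals cover counting error only. Genes of chromosome 11, on which Tcap lies, were shifted in line 66 by a median of 0.32 on the log2 scale relative to all genes averaging 10 TPM or more. For the chromosomes of the other 8 genes the shift in line 66 lay between -0.08 and 0.02. The part of this shift in the Tcap level was not tested.

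Csrp3 (chr7:48830398-48848033, minus strand) took 192 counts in line 66, 201 in line 67 and 315 in line 72, or 7.11, 7.27 and 12.6 TPM. Lines 66 and 67 were level, and line 72 was higher, with Poisson intervals of 166 to 221, 174 to 231 and 281 to 352. Csrp3-201, the full coding form, was measured at 4.52, 5.67 and 8.30 TPM. Csrp3-203, a partial transcript of 362 bases, took 28.9% ± 7.69 of gene TPM but only 9.18% ± 2.92 of counts. With counts divided by the effective length of the longest coding transcript, Csrp3 stood at 5.46, 6.29 and 9.71 on the TPM scale.

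Ordered by mean TPM, the genes ran Actn1, Neb, Actn3, Actn2, Ldb3, Ttn, Nrap, Csrp3 and Tcap. Neighbours whose ranges over the lines overlapped were Neb with Actn3, Actn2 with Ldb3, and Nrap with Csrp3. The other neighbours did not overlap. With counts over the longest coding transcript the order became Actn1, Actn3, Actn2, Ldb3, Neb, Nrap, Csrp3, Ttn and Tcap, and Ttn stood at 5.09, 6.85 and 7.16. In this order the ranges of Ldb3 and Neb, of Nrap and Csrp3, and of Csrp3 and Ttn overlapped, so Neb and Ttn were not separated from these neighbours. The order of the alpha-actinins among themselves was the same by both measures.

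The genes were next compared by the line in which they were highest. Of the 6 genes averaging 10 TPM or more, 5 were highest in line 72, where 45.7% of the 8428 genes were highest. Neb, 1 of the 6, was highest in line 67 (26.2% of genes), and none was highest in line 66 (28.1% of genes). Of all 9 genes, 8 were highest in line 72, against 44.4% of the 12528 genes averaging 1 TPM or more. At this lower limit 1 of the 9 was highest in line 67 (25.8% of genes) and 0 in line 66 (29.8% of genes). For Ttn the difference between lines 67 and 72 was minimal, and with TMM factors it was highest in line 67 instead.

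The lines differed more in most of these genes than in genes at large. The median ratio of highest to lowest line was 1.61 over the 6 members averaging 10 TPM or more, against 1.18 over the 8428 genes, and 1.73 over all 9 members. Summed over the 8 genes other than Actn1, TPM amounted to 219, 307 and 329 in lines 66, 67 and 72, a ratio of 1.51. The SD of log2(TPM + 1) was 0.55 for Actn2, 0.40 for Ldb3, 0.29 for Actn3, 0.19 for Ttn and 0.17 for Actn1. These exceeded the SD of 98.1%, 95.4%, 90.1%, 75.2% and 69.7% of the 8428 genes, in that order. The sum over differentiating muscle genes given above ran the same way from line to line as the sum over the 8 genes, and its part in these differences was not tested. In bulk samples, more cells of a type and more RNA per cell cannot be told apart.

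**Figure D4:**
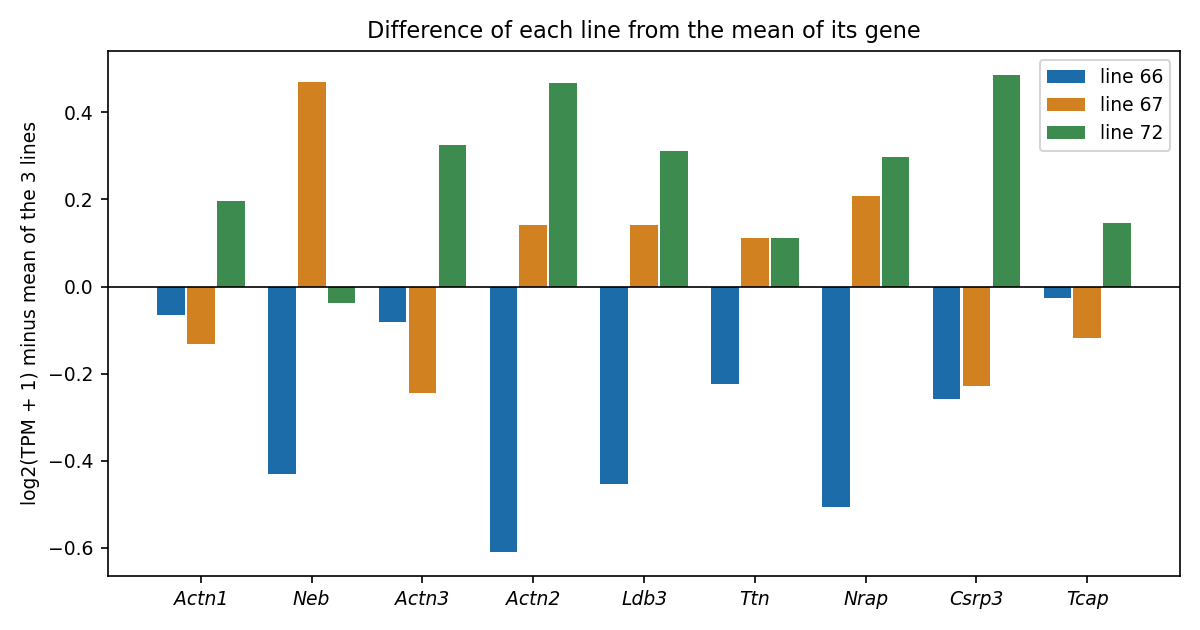
Difference of each line from the mean of its gene, on the log2(TPM + 1) scale, for the 9 genes in order of mean TPM; bars are single lines. Actn2 ranges from -0.61 in line 66 to 0.47 in line 72, and Neb is the gene with its highest bar in line 67 (0.47).

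Other genes of the Z-disc and sarcomere were taken from lists of known partners. Of 30 Z-disc partners, 21 were at 10 TPM or more in every line and 2 were under 1 TPM in every line. The highest were Ankrd1, a stretch-responsive titin partner, at 1375, 1133 and 1182 TPM, Des, encoding desmin, at 484, 511 and 487 TPM, and Actn4 at 394, 396 and 419 TPM. Lowest were Myoz3 at 0.02, 0.01 and 0.04 TPM, Xirp2 at 0.38, 0.57 and 0.55 TPM, and Myot, encoding myotilin, at 0.37, 1.25 and 1.79 TPM. The summed level was 4171, 4231 and 4345 TPM, 1.04 times apart, with Ankrd1, the largest term, highest in line 66. The median of the list on the log2(TPM + 1) scale was 5.46, 5.69 and 5.94 in lines 66, 67 and 72, lowest in line 66 and highest in line 72 like the member median. Of the 22 averaging 10 TPM or more, 9 were highest in line 72, 10 in line 67 and 3 in line 66, where the shares over all 8428 genes were 45.7%, 26.2% and 28.1%. Exceeding 2 times between lines, as 2.47% of all genes did, were Fhl1 (122, 49.4 and 149 TPM) and, marginally, Nebl (41.1, 20.5 and 21.8 TPM), both named after their values were seen. This count of 2 was 1 without line 66, 0 without line 67 and 2 without line 72. The shares over all genes in these settings were 1.09%, 1.47% and 1.36%.

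Partners of titin, the M-band and the thin filament were lower and varied more. Of 22 such genes, 7 were at 10 TPM or more in every line and 5 were under 1 TPM in every line. The highest were Obsl1, an obscurin-like M-band protein, at 69.3, 75.8 and 79.7 TPM, Smyd1, a methyltransferase of myofibril assembly, at 38.3, 72.2 and 96.1 TPM, and Trim55, a titin-binding ligase, at 50.3, 60.9 and 70.6 TPM. Mybpc3, the cardiac myosin-binding protein C, was lowest at 0, 0.01 and 0 TPM. It was followed by Kbtbd13 at 0.01, 0 and 0.03 TPM and Mybpc2 at 0.02, 0.02 and 0.02 TPM. The summed level was 273, 393 and 464 TPM, 1.70 times apart. Of the 10 genes averaging 10 TPM or more, 8 were highest in line 72, 2 in line 67 and 0 in line 66, against the same 45.7%, 26.2% and 28.1% of all genes. Of these 10 genes 4 exceeded 2 times between lines, against 2.47% of all genes. The count was 0 without line 66, 3 without line 67 and 1 without line 72. Over all genes the shares in these settings were 1.09%, 1.47% and 1.36%.

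Likeness to the members was measured by the distance between line-centred log2(TPM + 1) values over the 3 lines and the member median (-0.26, 0.11 and 0.30 in lines 66, 67 and 72). Nearest among the partners averaging 10 TPM or more were Myom1 (0.09), Myom3 (0.11), Trim55 (0.11), Xirp1 (0.14) and Synpo2 (0.14). Myom1, encoding the M-band crosslinker myomesin, stood at 9.14, 11.9 and 13.4 TPM. Over 3 lines such a distance describes these libraries only, and 0.20% of the 8428 genes were nearer than Myom1 while 2.36% were nearer than Synpo2. Of 6 fibroblast markers, 5 were under 1 TPM in every line, and Col1a2, named after its values were seen, stood at 7.47, 28.3 and 37.0 TPM.

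**Figure D5:**
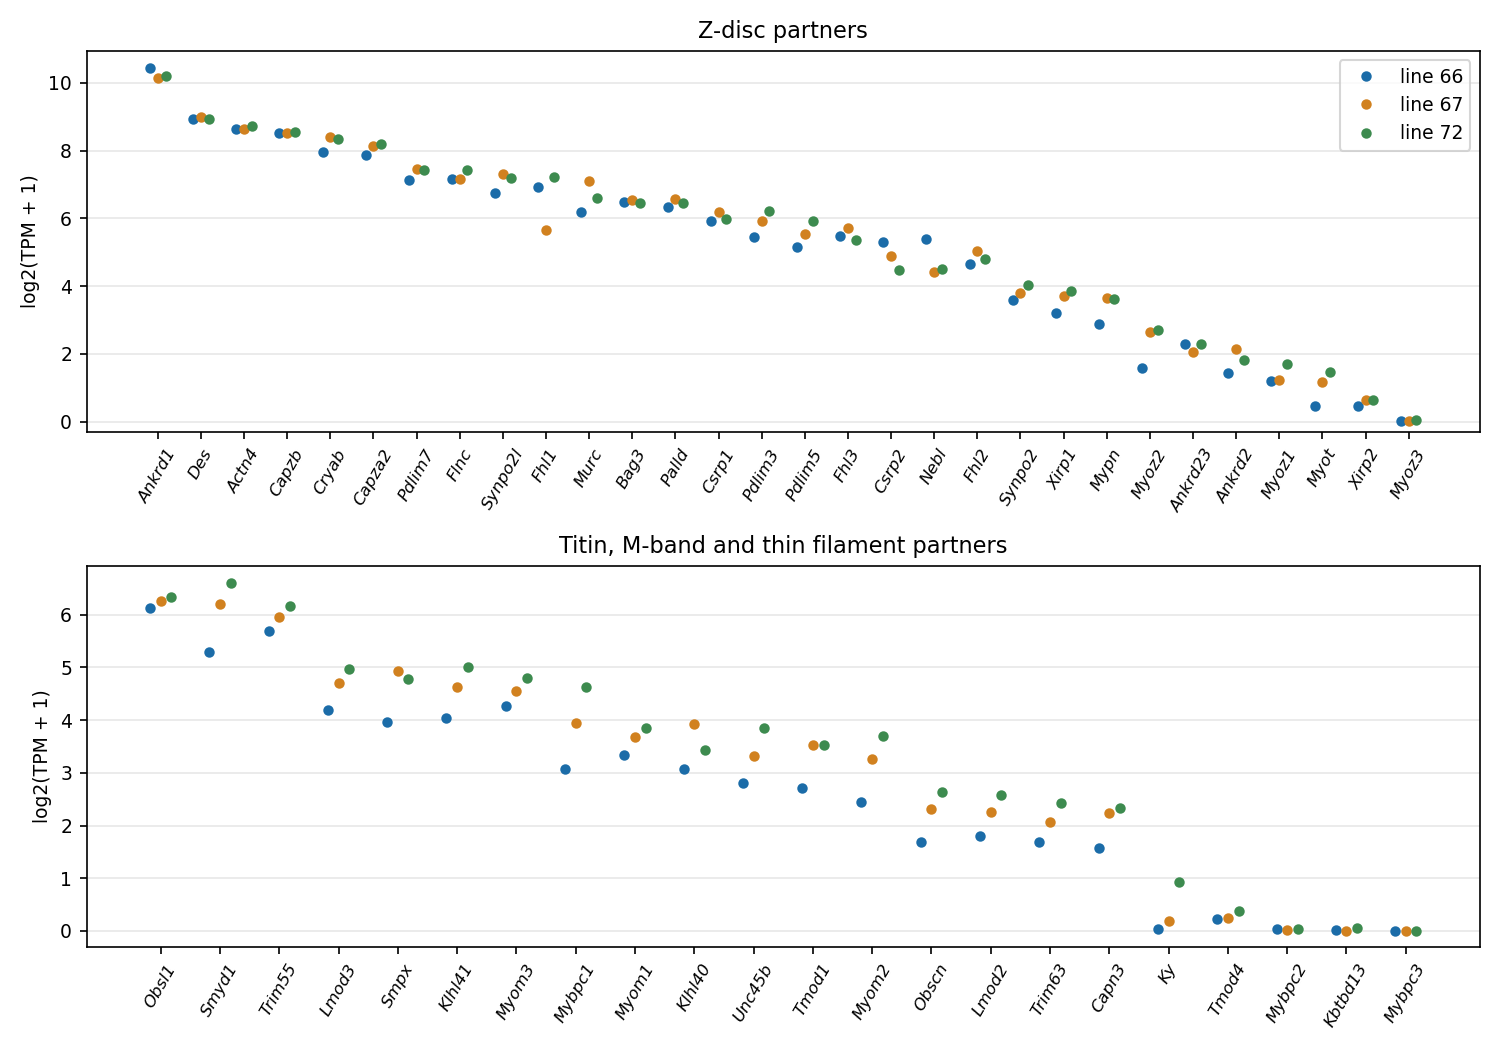
Levels of 30 Z-disc partners (top) and 22 partners of titin, the M-band and the thin filament (bottom) on the log2(TPM + 1) scale, with 1 point per line and genes ordered by mean TPM. Of genes averaging 10 TPM or more, 8 of 10 in the lower list and 9 of 22 in the upper list were highest in line 72, against 45.7% of all 8428 genes.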

How the data were processed

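Poly-A RNA of sorted myoblasts was sequenced from stranded libraries, and 3 lines gave 1 library each. Per the labels and the submitters' processing notes, the authors used bcl2fastq 2.20, fastp 0.20 and kallisto 0.46.1 with build GRCm39; the annotation release and strand setting are not given in the sources used here. The deposited tables hold estimated counts per transcript, not normalized, and TPM scaled by the authors' program to 1000000 per library. Of 121798 listed transcripts, 1112 had no match in GENCODE M21 (GRCm38) and were left out (0.49% to 0.54% of counts). Coordinates and exon structures are those of that annotation, not of the authors' build. Exon sequences were read from its transcripts by identifier, and promoter windows from RefSeq. The other results are sums over transcripts, means and SD over lines, ratios of highest to lowest line, and shares. Transcripts count as detected above 3 estimated counts in at least 1 line. For scaling alternatives, counts were rounded and factors came from edgeR 4.0.16 (TMM) and DESeq2 1.42.0, in R 4.3.3 with Python 3.11.15. No differential test was run because the lines form 1 condition. The code for the ratio and highest-line counts was checked on drawn counts with known changes, which is no test of the lines. The members and all lists were chosen with earlier results of these data known. Named genes are the 9 members, the 3 highest and 3 lowest of each partner list, Pax7, Myod1, Myf5 and Myog, and the 5 partners nearest to the member profile; the exons described and any other gene were chosen after values were seen. A comparison of protein sequences was not run. Some exons are described without their sequences, which are not reported here.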

Additional observations from a re-analysis of the deposited data

How the results depend on the processing

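The median level of the 9 genes was 4.99 on the log2(TPM + 1) scale as a mean over lines. With values not divided by length it was 6.42 as CPM, 6.43 as CPM with TMM factors and 6.42 with DESeq2 size factors, a change of unit rather than of level; with a pseudocount of 0.1 it was 4.94. Leaving out each line in turn gave 4.83 to 5.21. Of the 6 members averaging 10 TPM or more, 1 (Actn2) exceeded 2 times between lines and 3 (with Neb and Ldb3) exceeded 1.5 times, against 2.47% and 9.79% of all genes at that level; 1.5 times was also exceeded by Nrap (1.87) and Csrp3 (1.77) below that level. The count over 2 times was 0 without line 66, 0 without line 72, and 1 without line 67, so that the range was 0 to 1. The shares over all genes in these settings were 1.09%, 1.36% and 1.47%, in that order. Over 1.5 times the count was 0 without line 66, 2 without line 67 and 3 without line 72. The matching shares over all genes were 3.61%, 5.7% and 5.65%. These counts over 1.5 times were added after the data were seen. The ratio for Nrap was 1.07 without line 66. Members highest in line 72 numbered 5 of 6 at a mean of 10 TPM or more and 8 of 9 at a mean of 1 TPM or more. Of all genes at these levels 45.7% and 44.4% were highest in that line. The count was 4 of 6 with TMM factors and 5 of 6 with CPM, DESeq2 size factors or counts over the longest coding transcript, the last added after the data were seen. For these settings the share of all genes highest in line 72 was not computed, so the counts have no background at the same scaling. Of 213 further values for single genes, transcripts, exons and lists, 154 stayed within 1 SD of the lines or on the same side of their limit, 59 did not, and 0 reversed. No paired analysis was possible because the lines used here form 1 condition. Depth limited Tcap, with 100 to 130 counts a line, and shared sequence limited the transcript splits.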
